A study of Mus musculus with 6 samples.

Results

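Oxidative phosphorylation genes were followed in mouse embryonic stem cells lacking Hoxd12 and in wild-type cells. The genes were chosen by symbol. Protein-coding genes whose symbol starts with Nduf, Uqcr, Atp5, Cox4 to Cox8, mt-Nd, mt-Co, mt-Cytb or mt-Atp were taken, together with Sdha, Sdhb, Sdhc, Sdhd, Cycs and Cyc1. This gave 109 of the 55450 gene identifiers in the files, 96 in the nuclear genome and 13 on the mitochondrial chromosome. Complex I had 51 of them, complex II 4, complex III 10, complex IV 23 and complex V 20, and cytochrome c is the remaining one. Another 13 identifiers carried such a symbol but were not protein coding and were left out.

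The study set 3 libraries of Hoxd12-/- cells (KO) against 3 libraries of wild-type cells (WT). Per the labels, both were C57BL6 embryonic stem cells from the E3.5 embryo stage, grown in 2i medium, whose inhibitors of MEK and GSK3 hold cells in the naive state. RNA was extracted with Trizol and libraries were made with a stranded mRNA kit. The labels do not say whether the knockout is a single clone or whether libraries came from separate cultures, so p-values cover only how far these libraries vary, which may be technical variation.

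Library totals were 6107956, 5412462 and 6280837 counts in KO, and 5789015, 6263711 and 5963474 counts in WT. The targeted gene had 0 counts in all 6 libraries, so the genotype could not be checked by it. KO replicate 2 stood apart at the locus CT010467.1, which held 1.63% of its counts, against 0.102% to 0.139% in the other 5 libraries. Over the genes tested it had a chi-square per degree of freedom of 11.8 and 13.4 against the other KO libraries, where every other pair within a group had 1.98 to 2.50. These values include CT010467.1 and were not taken without that locus. All 10 pluripotency markers were tested, with Zfp42 called higher and Nanog lower, and their summed level was 3653 to 3710 CPM in KO and 3786 to 3951 CPM in WT. Of 10 fibroblast markers, 2 passed the filter, of which Thy1 was called lower (log2 fold change -0.97) and Pdgfrb was not called, with a summed level of 7.35 to 11.2 CPM in KO and 12.0 to 17.4 CPM in WT, and Col3a1, Postn, Dcn, Lum and Twist2 were at 0 in every library. Of 7 primitive endoderm markers, 1 passed the filter, Gata4, and Sox7 was at 0. Gata4 was called higher (log2 fold change 1.10), although its KO and WT libraries overlapped. The summed level of the 7 markers was 5.84 to 11.2 CPM in KO and 3.41 to 6.44 CPM in WT. The part of these marker differences in the results was not tested.

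Oxidative phosphorylation makes ATP from the electrons of NADH and succinate. Complexes I and II pass electrons to ubiquinone, complex III passes them on to cytochrome c, and complex IV hands them to oxygen. Complexes I, III and IV pump protons across the inner mitochondrial membrane, and the ATP synthase, complex V, uses their return flow. Most subunits are made from nuclear genes and imported, while a few hydrophobic core subunits are encoded by mitochondrial DNA, so the complexes need the products of both genomes. Complex II is made from nuclear genes alone. Naive embryonic stem cells use both respiration and glycolysis.

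Most nuclear-encoded mRNAs were slightly less abundant in KO libraries before any offset for transcript length. Of 91 nuclear members that passed the filter on low counts, 54 were called lower, 3 higher and 34 were not called (edgeR quasi-likelihood test, adjusted over 12891 genes, called below 0.05). Over all genes tested, 14.5% were called lower and 12.1% higher, 26.6% in either direction. DESeq2 called 48 nuclear members lower and 2 higher, where it called 9.99% and 5.44% of all genes. The median log2 fold change of the nuclear members was -0.19, against 0.02 for all genes tested. Without KO replicate 2, 58 were called lower and 3 higher, with a median of -0.22. That fit called 1787 of all 13211 genes lower and 1424 higher. With an offset for transcript length and GC content, added after seeing the data, 17 nuclear members were called lower and 12 higher. Their median was then -0.02, and 13.1% of all genes tested were called lower and 11.3% higher. In 58 nuclear members every KO library lay below every WT library, and in 4 every KO library lay above, where 20.1% and 19.6% of all genes tested did so. Together the nuclear members took 1.98%, 1.97% and 1.96% of the counts of the KO libraries, against 2.13%, 2.20% and 2.18% in the WT libraries. The 3 KO shares lay below all 3 WT shares. In bulk RNA, fewer cells of a type and less RNA per cell cannot be told apart.

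The 13 mitochondrially encoded members, as listed, had a median log2 fold change of -0.17, beside -0.19 for the nuclear members. The fold change was negative in 10 of the 13. Of the 13, 1 was called lower, mt-Nd1, and 0 higher, where 14.5% and 12.1% of all genes tested were. The summed level of the 13 was 12210, 11549 and 12030 CPM in KO and 13158, 10195 and 12048 CPM in WT. The groups overlapped in that sum, and KO libraries lay within the WT range. Whether nuclear and mitochondrial members differ from each other was not tested.

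**Figure D1:**
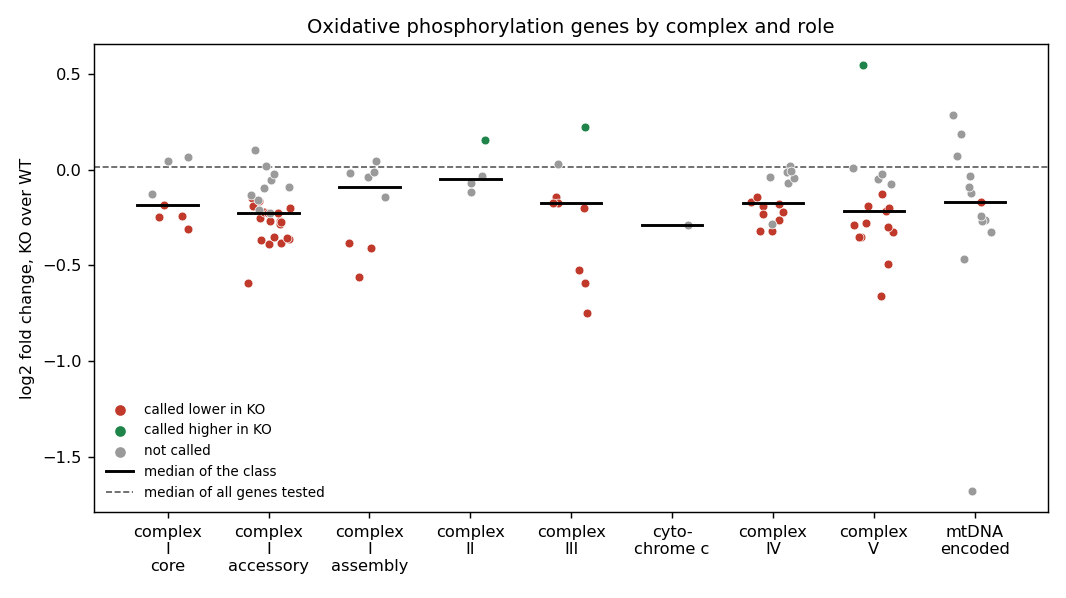
Log2 fold change of each tested gene (KO over WT, vertical axis) by complex and role; each point is 1 gene, coloured by edgeR's call, the black bar is the class median and the dashed line the median of all genes tested (0.02). Red points are genes called lower, so they lie below the dashed line by definition. Complex II and cytochrome c have no red point.

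Complex I, the NADH dehydrogenase, had 44 nuclear members, all tested, of which 26 were called lower and 0 higher, with a median log2 fold change of -0.21. Its core subunits carry the flavin and the iron-sulfur clusters, and 4 of 7 were called lower. Ndufs7, the subunit with the last iron-sulfur cluster before ubiquinone, had 98.7, 105 and 95.8 CPM (counts scaled to library size) in KO and 124, 130 and 115 CPM in WT. The highest KO library lay below the lowest WT library. Its log2 fold change was -0.31 (SE 0.06, adjusted p = 9.83e-05). Ndufs8, another iron-sulfur subunit, averaged 81.3 ± 1.89 CPM in KO and 96.6 ± 4.07 CPM in WT (SD, n = 3 each), a log2 fold change of -0.25. Ndufv2 and Ndufv1, which form the NADH-binding tip, had log2 fold changes of -0.24 and -0.19. Ndufv2 was the core subunit with the highest level per length, 209 ± 10.7 TPM in KO and 230 ± 9.23 TPM in WT.

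Of 29 accessory subunits of complex I, which surround the core and stabilise it, 19 were called lower, with a median of -0.23. Ndufa11, a membrane-arm subunit, had 124, 157 and 132 CPM in KO and 210, 212 and 200 CPM in WT. KO replicate 2 was the highest of its group and still below the WT libraries. The log2 fold change was -0.59 (SE 0.07, adjusted p = 1.94e-05). Ndufc1, a small membrane subunit, followed with -0.39, Ndufa3 with -0.38 and Ndufa2 with -0.37; Ndufa2 was not called without KO replicate 3. Ndufa7 had the highest level per length of the accessory subunits, 744 ± 14.9 TPM in KO and 762 ± 28.6 TPM in WT. Its log2 fold change from counts was -0.15 (SE 0.05, adjusted p = 0.0173), and the call did not hold without KO replicate 1 or 3 or without WT replicate 2 or 3. With an offset for transcript length and GC content it was called higher (0.11, adjusted p = 0.0337).

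Assembly factors of complex I are not part of the finished enzyme but are needed to build it, and 3 of 8 were called lower. Ndufaf8, known from human cells as a partner of NDUFAF5, had 24.1, 24.3 and 23.0 CPM in KO and 31.7, 34.4 and 39.0 CPM in WT. The KO libraries agreed closely and lay below all WT libraries, with a log2 fold change of -0.56 (SE 0.10, adjusted p = 0.000102). With an offset for transcript length and GC content the log2 fold change was -0.24 and it was not called (adjusted p = 0.0853). Ndufaf2, a late assembly factor, had a log2 fold change of -0.41 and lost its call without WT replicate 3. Ndufaf1, which acts early on the membrane arm, had -0.39 and lost its call without KO replicate 2, WT replicate 1 or WT replicate 2, and with DESeq2.

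Complex II, succinate dehydrogenase, links the citric acid cycle to the chain. It differed little between the groups. Its 4 genes summed to 595, 585 and 588 CPM in KO and 593, 577 and 598 CPM in WT. Sdha, the flavoprotein that oxidises succinate, had 205, 193 and 195 CPM in KO and 186, 163 and 182 CPM in WT, with no overlap. It was called higher (log2 fold change 0.16, SE 0.05, adjusted p = 0.0171), a call lost without KO replicate 1, without WT replicate 2 and with DESeq2. Sdhb, the iron-sulfur subunit, had 132 ± 2.26 CPM in KO and 143 ± 4.01 CPM in WT (log2 fold change -0.11, adjusted p = 0.0841). The membrane anchors Sdhc (-0.07, adjusted p = 0.334) and Sdhd (-0.03, adjusted p = 0.686) were not called either. Per length, the levels were 77.8 to 129 TPM in KO and 65.6 to 123 TPM in WT, with Sdha the lowest of the 4 in both.

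Complex III, the cytochrome bc1 complex, held the largest fall among the nuclear members. Of its 9 nuclear genes, 7 were called lower and 1 higher, and their sum was 2004, 2065 and 1954 CPM in KO and 2408, 2463 and 2544 CPM in WT, a ratio of 0.812. Uqcrq, a small subunit next to cytochrome b (ENSMUSG00000044894, chromosome 11, 53427922 to 53430831, GRCm38), had 230, 244 and 207 CPM in KO and 378, 379 and 389 CPM in WT. No KO library came near the WT range. The log2 fold change was -0.75 (SE 0.05, adjusted p = 2.43e-13), a level 40.5% lower in KO. Uqcr10, another small membrane subunit, had 236, 248 and 217 CPM in KO and 329, 356 and 372 CPM in WT (log2 fold change -0.59, SE 0.05, adjusted p = 5.09e-10). Uqcr11, a small subunit added at the end of assembly, had 170, 173 and 167 CPM in KO and 241, 237 and 256 CPM in WT (log2 fold change -0.52, SE 0.05, adjusted p = 8.12e-11). All 3 small subunits were separated in the same way.

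Other complex III genes moved less. Uqcrb, a subunit at the ubiquinone side, averaged 198 ± 8.09 CPM in KO and 227 ± 8.87 CPM in WT, a log2 fold change of -0.20. Cyc1, cytochrome c1 itself, averaged 329 ± 7.01 CPM in KO and 364 ± 10.9 CPM in WT (log2 fold change -0.14, SE 0.04, adjusted p = 0.0141), a call lost without KO replicate 1 or WT replicate 3. On TPM its values ran the other way, 334 ± 36.3 in KO and 293 ± 11.1 in WT. The difference of 0.18 on the log2(TPM + 1) scale was not called, and that scale put the median of all genes at 0.10. Uqcrc2, a core subunit, had 141, 140 and 143 CPM in KO and 119, 122 and 122 CPM in WT. It was the only complex III gene called higher (log2 fold change 0.22, SE 0.05, adjusted p = 0.000903). Uqcrfs1, the Rieske iron-sulfur protein, was the 1 nuclear gene of the complex not called (0.03, adjusted p = 0.774), and is named after its values were seen.

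**Figure D2:**
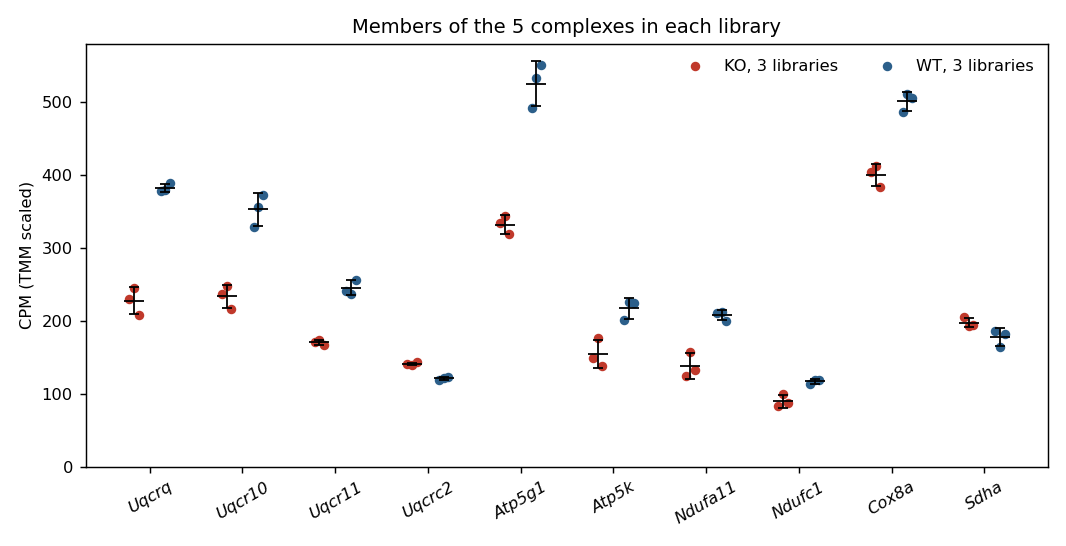
Level of 10 genes in each library, as CPM on TMM-scaled library sizes; points are the 3 KO libraries (left, red) and the 3 WT libraries (right, blue) of each gene, with the mean and SD as bars. The KO points of Uqcrq (207 to 244 CPM) lie well below the WT points (378 to 389 CPM), while Uqcrc2 and Sdha lie higher in KO.

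Cytochrome c, Cycs, carries electrons from complex III to complex IV. It had 105, 126 and 92.5 CPM in KO and 130, 137 and 127 CPM in WT, a narrow separation, and was not called (log2 fold change -0.29, SE 0.10, adjusted p = 0.0829). DESeq2 called it lower (adjusted p = 0.0161), as did the fit without KO replicate 2, where the Cycs log2 fold change was -0.41 (adjusted p = 1.03e-05). Cycs shares 25.3% of its 50-base words with Gm10053 and fewer with 2 processed pseudogenes. Summed with them it had 245, 252 and 244 CPM in KO and 274, 295 and 282 CPM in WT, and was called lower (log2 fold change -0.20, SE 0.04, adjusted p = 0.000636).

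Complex IV, cytochrome c oxidase, had 16 of its 20 nuclear members tested, with 9 called lower and 0 higher and a median of -0.18. With an offset for transcript length and GC content in each library, added after seeing the data, 0 were called lower and 5 higher. Cox8a, the ubiquitous form of the smallest subunit, had 404, 412 and 384 CPM in KO and 486, 511 and 505 CPM in WT (log2 fold change -0.32, SE 0.05, adjusted p = 1.24e-06). With that offset its log2 fold change was -0.035 and it was not called. Cox7a1, a form best known from heart and muscle, was present at 42.0 ± 1.22 CPM in KO and 52.4 ± 2.81 CPM in WT (log2 fold change -0.32). Cox7a2, its ubiquitous counterpart, was more abundant and also lower, 231 ± 8.16 CPM in KO and 278 ± 10.2 CPM in WT (log2 fold change -0.27). Cox6c had a log2 fold change of -0.23, Cox6b1 of -0.22 and Cox6a1 of -0.18. The Cox6a1 call did not hold without KO replicate 1 or 3 or without WT replicate 2 or 3, and with the offset Cox6a1 was called higher (0.12, adjusted p = 0.0139).

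Several complex IV members were nearly level between the groups in counts. Cox4i1, the main form of subunit 4, had 912, 973 and 906 CPM in KO and 916, 912 and 932 CPM in WT. Its log2 fold change was 0.02 (SE 0.04, adjusted p = 0.831). It had the highest level per length of the nuclear complex IV genes, 1448 ± 27.6 TPM in KO and 1318 ± 22.4 TPM in WT. With limma on log2(TPM + 1), Cox4i1 (0.14, adjusted p = 0.0379) and Cox7b (0.18, adjusted p = 0.0468) were called higher. That scale put the median of all genes at 0.10.  Ndufa4, once assigned to complex I and now placed in complex IV, had 456 ± 21.8 CPM in KO and 458 ± 16.1 CPM in WT. Its paralogue Ndufa4l2 (-0.04), the testis form Cox6b2 (-0.07), Cox7b (-0.05) and the supercomplex factor Cox7a2l (-0.01) were not called. Cox4i2, the form of subunit 4 known from lung, averaged 9.13 ± 0.867 CPM in KO and 11.1 ± 0.81 CPM in WT. The groups did not overlap, and it was not called (log2 fold change -0.28, SE 0.17, adjusted p = 0.221).

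Other tissue-restricted forms did not pass the filter. Cox8b, a heart and muscle form, had 0 counts in every library, which allows up to 3 counts, 0.478 to 0.554 CPM of the library total. Cox6a2, Cox8c and Cox7b2 had at most 0.767 CPM in any library. The fifth member that did not pass was a second identifier named Atp5o, ENSMUSG00000116933, which overlaps the first and had 0 to 0.153 CPM in all 6 libraries.

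Complex V, the ATP synthase, had 17 of 18 nuclear members tested, with 12 called lower, 1 higher and a median of -0.22. Atp5k, the membrane subunit e, had 149, 176 and 138 CPM in KO and 201, 225 and 225 CPM in WT (log2 fold change -0.49, SE 0.09, adjusted p = 0.00599). Atp5l, subunit g, had a log2 fold change of -0.35 and Atp5h, subunit d of the peripheral stalk, also of -0.35. Atp5b, the catalytic beta subunit, had the highest level of all nuclear members, 2496 ± 57.8 TPM in KO and 2712 ± 102 TPM in WT. Its counts did not differ, with 2056, 2058 and 2160 CPM in KO and 2075, 2109 and 2057 CPM in WT (log2 fold change 0.01, adjusted p = 0.911). With an offset for the effective length in each library its log2 fold change was -0.24, so its direction depends on the transcript lengths the files list.

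Subunit c forms the proton-carrying ring of the ATP synthase and is encoded by Atp5g1, Atp5g2 and Atp5g3, which give the same mature protein from different precursors. Atp5g1 (ENSMUSG00000006057, chromosome 11, 96068852 to 96075670) had 333, 344 and 318 CPM in KO and 491, 533 and 551 CPM in WT. No library overlapped, and the log2 fold change was -0.66 (SE 0.05, adjusted p = 1.37e-12). Atp5g3 had 412, 429 and 409 CPM in KO and 463, 490 and 497 CPM in WT (log2 fold change -0.22, SE 0.05, adjusted p = 0.000437). Atp5g2 went the other way as listed, with 61.7, 49.5 and 54.9 CPM in KO and 45.1, 36.7 and 32.5 CPM in WT (log2 fold change 0.55, SE 0.10, adjusted p = 0.000529).

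The Atp5g2 value depends on a copy. Gm10175 is a transcribed processed pseudogene on chromosome 7 (23946646 to 23947290, minus strand, GRCm38). All 645 of its bases align with 0 mismatches to bases 83 to 727 of 1 Atp5g2 transcript, which has 731 bases. Over all Atp5g2 transcripts, Gm10175 shares 36.7% of the gene's 50-base words. Reads from that stretch therefore cannot be told apart by sequence. The first 60 coding bases of Atp5g2 and the matching bases of Gm10175 (GENCODE M21 transcripts) show the identity, with the bases of the Atp5g2 start codon in capitals:
Atp5g2: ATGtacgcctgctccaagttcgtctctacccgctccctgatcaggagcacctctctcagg
Gm10175: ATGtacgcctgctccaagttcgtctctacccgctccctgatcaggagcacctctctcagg
Gm10175 was listed at 334, 371 and 343 CPM in KO and 419, 429 and 435 CPM in WT, several times the level listed for Atp5g2. Summed with its copies, Atp5g2 had 397, 420 and 398 CPM in KO and 463, 467 and 467 CPM in WT. The log2 fold change of the sum was -0.20 (SE 0.04, adjusted p = 0.000568), so the direction turned round and lay close to that of Atp5g3. With the sums, 57 nuclear members were called lower and 2 higher, beside 1854 and 1571 of all 12873 genes tested in that fit.

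**Figure D3:**
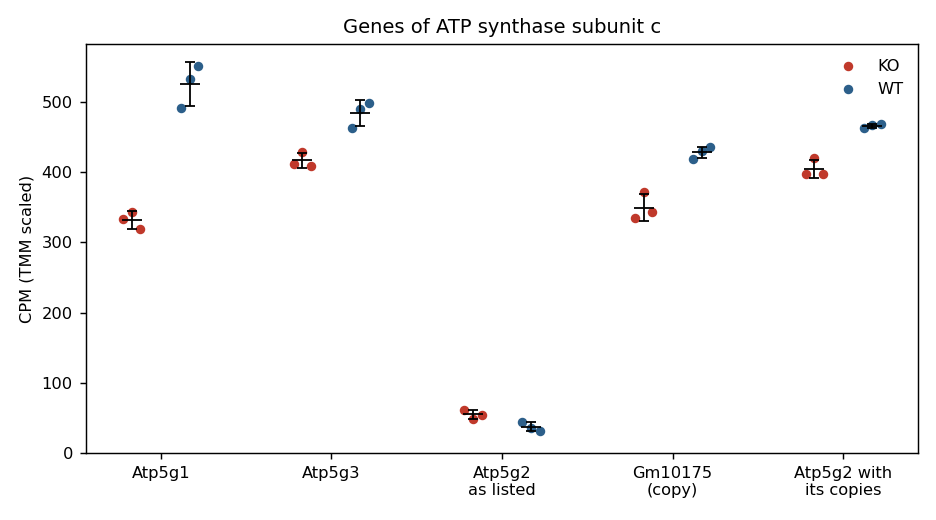
Level of the 3 genes of ATP synthase subunit c and of the Gm10175 copy in each library, as CPM on TMM-scaled library sizes; points are KO (left, red) and WT (right, blue) libraries, with mean and SD as bars. Atp5g2 as listed is higher in KO, while Gm10175 and the sum are lower in KO, as are Atp5g1 and Atp5g3.

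The mitochondrially encoded genes had a larger issue of the same kind. A stretch of chromosome 1 from 24611535 to 24616197 (GRCm38, minus strand) holds 7 unprocessed pseudogenes that copy mt-Co1, mt-Co2, mt-Atp6, mt-Co3, mt-Nd3, mt-Nd4l and mt-Nd4. The copies of mt-Co2, mt-Atp6, mt-Co3, mt-Nd4l and mt-Nd4 had 0 mismatches over 681, 678, 783, 294 and 876 aligned bases. The copy of mt-Nd3 differed at 1 of 345 bases, T3C, and that of mt-Co1 at 1 of 483, A1066T (mitochondrial base, position from 1 at the transcript's first base, then the base of the copy). The first 60 bases of 2 pairs follow (GENCODE M21), with the differing base of the mt-Nd3 pair in capitals and no capitals where the pair is identical:
mt-Nd3: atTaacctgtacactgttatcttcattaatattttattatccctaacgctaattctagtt
Gm28438: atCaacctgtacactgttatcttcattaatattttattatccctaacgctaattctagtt
mt-Co3: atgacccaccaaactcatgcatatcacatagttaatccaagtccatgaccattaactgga
Gm28437: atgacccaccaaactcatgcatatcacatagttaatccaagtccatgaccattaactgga
How the reads of a pair were listed differed from pair to pair. For mt-Co2, mt-Co3 and mt-Atp6 most were listed under the copy. The copy of mt-Nd4 had 0 counts in all 6 libraries, so all of that pair's reads were listed under mt-Nd4, and for mt-Nd4l the share under the gene was 0% to 54.4% in KO and 9.30% to 46.9% in WT. Gm28661, the copy of mt-Co2, had 36738, 31032 and 35989 counts in KO and 34393, 36462 and 35275 in WT, and mt-Co2 itself far fewer. How a read that fits both places was divided is not given in the sources used here.

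The split between gene and copy varied from library to library. As listed, mt-Co3 (subunit 3 of complex IV) had 535, 899 and 77.1 CPM in KO and 413, 521 and 704 CPM in WT, with the lowest and the highest value both in KO. Summed with Gm28437 it had 5283, 5240 and 4980 CPM in KO and 5344, 4416 and 5466 CPM in WT, and KO lay within the WT range (log2 fold change 0.03, SE 0.08, adjusted p = 0.855). As listed, mt-Co2, the subunit that receives electrons from cytochrome c, had 140, 114 and 80.8 CPM in KO and 126, 200 and 136 CPM in WT (log2 fold change -0.47, SE 0.31, adjusted p = 0.359). Summed, it had 6020, 5942 and 5603 CPM in KO and 6092, 6130 and 6178 CPM in WT. The sum was lower in every KO library but was not called (log2 fold change -0.07, SE 0.04, adjusted p = 0.215).

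Of the other copied genes, mt-Co1, the catalytic subunit of complex IV, had 4775, 4044 and 5218 CPM in KO and 4287, 3473 and 3774 CPM in WT as listed (log2 fold change 0.28, SE 0.14, adjusted p = 0.230). Summed, it had 10473, 9659 and 10422 CPM in KO and 10092, 8865 and 9520 CPM in WT (0.10, SE 0.04, adjusted p = 0.0832). The groups overlapped either way. The ATP synthase subunit mt-Atp6 had a log2 fold change of 0.19 as listed and 0.08 summed (adjusted p = 0.409). The complex I subunits mt-Nd3 (-0.26, adjusted p = 0.0825), mt-Nd4 (-0.26, adjusted p = 0.622) and mt-Nd4l (-1.05, adjusted p = 0.423) were not called when summed. As listed, mt-Nd4l had 0 to 13.7 CPM in KO and 5.82 to 42.8 CPM in WT, so its listed fold change rests on few reads.

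**Figure D4:**
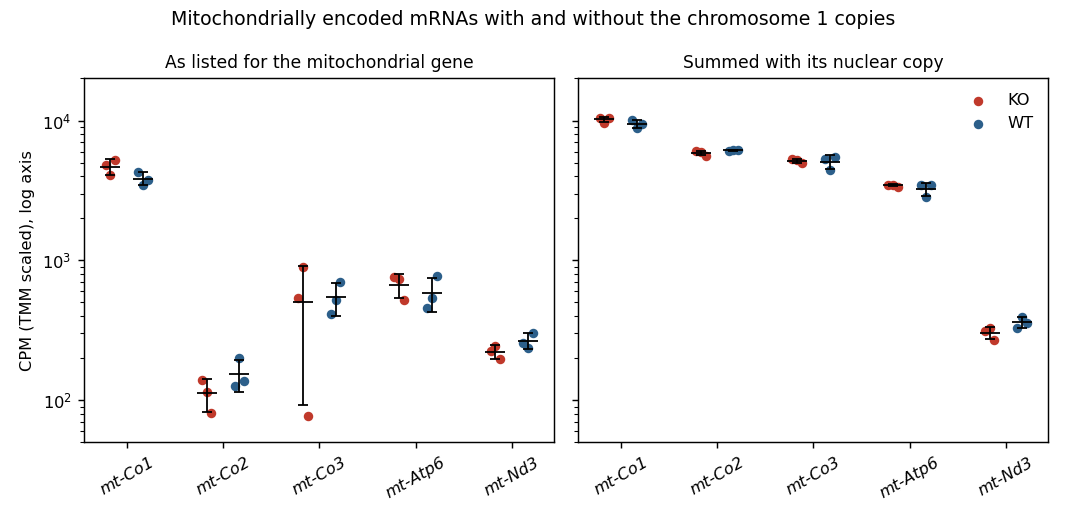
Level of 5 mitochondrially encoded mRNAs in each library as listed (left panel) and summed with their nuclear copies (right panel), as CPM on TMM-scaled library sizes, on a log axis; points are KO (left, red) and WT (right, blue) libraries, with mean and SD as bars. The listed mt-Co3 spreads from 77.1 to 899 CPM in KO, and summed it stays between 4980 and 5283 CPM.

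The other 6 mitochondrial genes have no annotated copy (GENCODE M21) on that stretch of chromosome 1, whose genome sequence was not searched. Of these, mt-Nd1, a membrane subunit of complex I, had 1228, 1179 and 1271 CPM in KO and 1537, 1286 and 1321 CPM in WT. It was called lower by a narrow margin (log2 fold change -0.17, SE 0.06, adjusted p = 0.0277), and the call was lost without any 1 KO library and without WT replicate 1. The complex I subunits mt-Nd2 (-0.09, adjusted p = 0.488) and mt-Nd5 (-0.32, adjusted p = 0.511) were not called. Cytochrome b, mt-Cytb, had 1473, 1352 and 1464 CPM in KO and 1555, 1210 and 1324 CPM in WT (0.07, adjusted p = 0.663). The small ATP synthase subunit mt-Atp8 (-0.04, adjusted p = 0.935) and mt-Nd6 (-0.24, adjusted p = 0.227) were not called. Without WT replicate 2, the lowest WT library for several of them, mt-Atp8, mt-Nd2, mt-Nd5 and mt-Nd6 were also called lower. Without WT replicate 1, mt-Cytb was called higher. Genes such as mt-Atp8 and mt-Atp6, and mt-Nd5 and mt-Nd6, overlap at their ends, and whether counting used strand is not given in the sources used here.

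Taken with the copies, the mitochondrially encoded mRNAs held 3.12% ± 0.132 of counts in KO and 3.03% ± 0.276 in WT (SD, n = 3 each), against 1.21% ± 0.0684 and 1.16% ± 0.152 as listed. The difference was smaller than the spread between libraries in both cases.

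The nuclear members are short, and short transcripts were lower in KO across the whole transcriptome. The median listed transcript length was 681 bases for the 91 tested nuclear members and 2213 bases for all genes tested, and 67 of the 91 were under 1000 bases. Under 500 bases, 11 of 12 members were called lower, with a median of -0.39, against 32.0% of the other 272 genes, whose median was -0.22. Between 500 and 750 bases, 30 of 42 members were called lower and 1 higher, with a median of -0.22, and the 519 other genes had a median of -0.21 with 38.9% called lower. Between 750 and 1000 bases the medians were -0.20 for 13 members and -0.12 for 879 other genes. Between 1000 and 1500 bases they were -0.06 for 18 members and -0.04 for 1974 others. Other genes over 3000 bases had a median of 0.08. Across the 91 members, log2 length and log2 fold change had a Pearson correlation of 0.51 and a Spearman correlation of 0.52, a description over genes of the same 6 libraries.

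**Figure D5:**
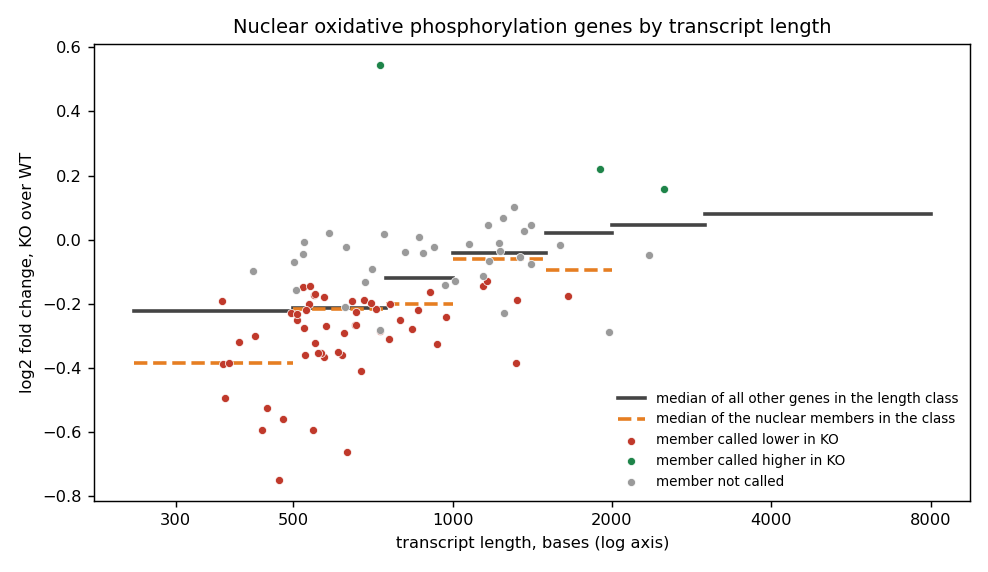
Log2 fold change (KO over WT, vertical axis) of each tested nuclear member by listed transcript length in bases (log axis); points are genes, coloured by edgeR's call, solid bars are the medians of all other genes in each length class (the outer bars extend to the plotted edges), and dashed bars the medians of the members in classes with at least 4. The solid bars rise with length from -0.22 to 0.08, and the members under 500 bases have a median of -0.39, below the -0.22 of the other genes.

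With an offset for transcript length and GC content in each library, 17 nuclear members were called lower and 12 higher, where 13.1% and 11.3% of all genes tested were. Of the 17, 16 were among the 54. Of the other members of the 54, 36 were not called with the offset and 2, Ndufa7 and Cox6a1, were called higher. By complex, 6 were called lower and 4 higher in complex I, 0 and 0 in complex II, 4 and 1 in complex III, 0 and 5 in complex IV and 7 and 2 in complex V. The median of the nuclear members was then -0.02, beside 0.01 for all genes. Medians by complex were -0.04 for complex I, 0.0063 for complex II, -0.01 for complex III, 0.05 for complex IV and -0.08 for complex V, so the direction turned for complexes II and IV. Uqcrq had a log2 fold change of -0.48 with this offset, Atp5g1 of -0.46, Ndufaf1 of -0.40, Uqcr10 and Ndufa11 of -0.31 and Uqcr11 of -0.19, all called. Genes called higher with the offset but not without it included Cox4i1 (0.21), Ndufa4 (0.20), Cox7b (0.17), Cox6b2 (0.21) and Atp5b (0.12). Among genes described above, Ndufs7 (-0.09), Ndufs8 (-0.05), Ndufc1 (-0.11), Ndufa3 (-0.06), Ndufaf2 (-0.23), Cyc1 (-0.01), Uqcrb, Cox7a1, Cox7a2 (-0.10), Cox6c, Cox6b1, Atp5g3 (-0.06) and Sdha (0.10) were no longer called. With limma on log2(TPM + 1), where the median of all genes was 0.10, 19 nuclear members were called lower and 5 higher, and 5.53% and 7.67% of all genes were. The calls of Ndufs7, Ndufs8, Ndufv1, Ndufv2, Ndufa3, Ndufa7, Ndufaf1, Ndufaf2, Sdha, Uqcrb, Cox6a1, Cox6c, Cox7a1, Cox7a2, Atp5g3 and mt-Nd1 did not hold on that scale. Over 6559 genes longer than 3000 bases, effective length fell short of length by a median of 133 to 140 bases in KO libraries. In WT libraries the median was 136 to 140 bases, and the ranges overlap. That length class holds 0 of the tested nuclear members, so these values do not cover the members themselves.

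Under each of 16 alternatives with a test, 11 nuclear members were called lower and 1 higher. Fits with mitochondrial genes or whole chromosomes removed are not among the 16. This count was made for members only and not for all genes, so whether 11 is a large number was not tested. The 11 were Uqcrq, Uqcr10 and Uqcr11 of complex III, Ndufa11 and Ndufs6 of complex I, and Atp5g1, Atp5k, Atp5l, Atp5h, Atp5d and Atp5o of complex V. The 1 higher was Uqcrc2. Ndufs6, Atp5d and Atp5o are named here after their values were seen.

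Members differed by chromosome. Chromosome 11 held 5 tested members, Uqcrq, Uqcr10, Atp5g1, Atp5h and Ndufaf8, and all 5 were called lower, with a median of -0.59. The 1050 genes tested on that chromosome had a median of -0.12, with 28.0% called lower and 3.24% higher. Chromosomes 6 and 8, whose genes had medians of 0.16 and 0.17, held 5 and 3 tested members, of which 2 and 0 were called lower and 0 higher. Of all genes tested there, 7.83% and 5.97% were called lower and 30.5% and 30.2% higher. Without the genes of chromosomes 6, 8 and 11, 46 of 78 nuclear members were called lower and 3 higher. That fit called 1428 of all 10504 genes lower and 1106 higher. The part of the chromosome 11 shift in the falls of its 5 members was not tested.

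Promoters are shown for 5 of the 6 nuclear members with the largest falls, all but Uqcrq; these 5 genes lie on chromosomes 10, 11 and 17. Nuclear respiratory factor 1 (NRF1) and the ETS factor GABP are known activators of respiratory chain genes. Windows of 250 bases before the RefSeq start (GRCm38.p6) were searched on both strands for GCGCA and GCGC with any 1 base between them (NRF1), CCGGAAG (ETS) and AAGATGGC (YY1). The windows of 5 genes follow, written on the gene's strand, with a match in capitals. They are Atp5g1 (chr11:96075632-96075881, minus), Uqcr10 (chr11:4704345-4704594, minus), Ndufa11 (chr17:56717512-56717761, plus), Ndufaf8 (chr11:120098684-120098933, plus) and Uqcr11 (chr10:80406822-80407071, minus):
Atp5g1: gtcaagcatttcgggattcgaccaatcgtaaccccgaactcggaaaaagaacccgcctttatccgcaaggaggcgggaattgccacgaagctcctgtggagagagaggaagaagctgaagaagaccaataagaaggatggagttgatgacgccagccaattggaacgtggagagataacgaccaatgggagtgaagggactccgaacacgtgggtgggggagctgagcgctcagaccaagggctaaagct
Uqcr10: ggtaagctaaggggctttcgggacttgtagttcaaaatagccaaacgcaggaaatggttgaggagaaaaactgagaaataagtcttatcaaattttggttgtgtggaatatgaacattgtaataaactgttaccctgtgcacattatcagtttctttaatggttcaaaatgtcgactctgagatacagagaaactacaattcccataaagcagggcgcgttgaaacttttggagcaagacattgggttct
Ndufa11: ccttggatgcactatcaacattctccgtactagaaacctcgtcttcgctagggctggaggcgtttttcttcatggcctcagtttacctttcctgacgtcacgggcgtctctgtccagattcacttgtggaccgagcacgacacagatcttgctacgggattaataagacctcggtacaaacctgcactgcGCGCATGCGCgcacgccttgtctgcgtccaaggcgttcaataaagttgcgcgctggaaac
Ndufaf8: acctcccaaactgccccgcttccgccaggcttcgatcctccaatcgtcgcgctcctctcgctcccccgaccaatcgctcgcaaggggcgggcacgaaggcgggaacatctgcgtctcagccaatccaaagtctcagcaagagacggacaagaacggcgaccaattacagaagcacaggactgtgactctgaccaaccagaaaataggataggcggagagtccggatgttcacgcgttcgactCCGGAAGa
Uqcr11: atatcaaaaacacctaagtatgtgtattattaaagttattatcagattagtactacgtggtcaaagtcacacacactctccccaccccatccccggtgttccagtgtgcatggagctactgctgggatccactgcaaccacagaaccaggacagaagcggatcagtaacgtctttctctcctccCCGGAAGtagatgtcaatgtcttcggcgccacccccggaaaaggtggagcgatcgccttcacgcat
Ndufa11 holds an NRF1 match, and Ndufaf8 and Uqcr11 an ETS match. Uqcr10 and Atp5g1 hold none of the motifs in these letters. Of 75 members with a window, 17.3% held the NRF1 motif and 17.3% the ETS motif, against 3.86% and 7.05% of all 27025 promoters. The 27025 include promoters of genes not tested here, and a share over expressed genes alone was not taken. The YY1 motif was held by 0 of the 75, against 1.59%. At that share few matches would be found in 75 windows, and bases after the start were not searched. Other members had no window. Of the 13 tested members with an NRF1 match 9 were called lower, and of the 60 without it 39. Of the 13 with an ETS match 10 were called lower, and of the 60 without it 38. The median log2 fold changes were -0.25 with and -0.21 without the NRF1 match, and -0.27 with and -0.20 without the ETS match, differences that were not tested. A match is a description of letters and not evidence of binding. The Nrf1 mRNA was at 63.4 ± 1.93 CPM in KO and 63.2 ± 5.22 CPM in WT, and Gabpa at 44.3 ± 1.16 CPM in KO and 42.0 ± 0.545 CPM in WT (SD, n = 3 each), both not called.

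Other genes of the pathway were counted in 5 lists, to be read against the 14.5% of all genes tested that were called lower and the 12.1% called higher. Of 40 tested assembly factors outside the symbol rule, 12 (30%) were called lower and 1 (2.5%) higher, with a median of -0.12. Cox17, a copper chaperone for complex IV, averaged 129 ± 6.41 CPM in KO and 164 ± 10.3 CPM in WT (log2 fold change -0.36, SE 0.05, adjusted p = 3.65e-06). Uqcc2 (-0.26) and Uqcc3 (-0.45), which help to build complex III, were called lower. With the length and GC offset Cox17 (-0.12) and Uqcc2 were not called, and on log2(TPM + 1) Uqcc2 and Uqcc3 were not. Of 38 genes for replication and expression of mitochondrial DNA, 5 (13.2%) were called lower, near the share of all genes, and 2 (5.26%) higher, with a median of -0.05. Tufm, the mitochondrial elongation factor, averaged 164 ± 2.97 CPM in KO and 213 ± 6.18 CPM in WT (log2 fold change -0.38, adjusted p = 9.00e-08). Tbrg4, an RNA-binding protein that stabilises mitochondrial mRNAs, had a log2 fold change of -0.35. Primpol, a primase and polymerase that restarts stalled replication, was higher (0.69).

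Counts in the other lists were small. Of 23 nuclear regulators of mitochondrial genes, 1 was called lower, Tfeb (-0.56), a regulator of lysosomal genes, and 0 higher. Of 26 genes of the citric acid cycle and pyruvate entry, 5 (19.2%) were called higher and 2 (7.69%) lower. Their median was 0.06, beside 0.05 for genes of 2000 to 3000 bases outside the nuclear members. Idh2, the mitochondrial NADP isocitrate dehydrogenase, averaged 217 ± 3.78 CPM in KO and 185 ± 5.03 CPM in WT (0.23), and Pdk1, a kinase that inhibits pyruvate dehydrogenase, 103 ± 1.53 CPM in KO and 78.8 ± 3.25 CPM in WT (0.38). Mdh2, malate dehydrogenase, was called lower (-0.25). On log2(TPM + 1) Pdk1, Mdh2, Tfeb and Ucp2 were not called, and Pdk1 was at 0.07 and not called with the effective length offset. Of 26 carriers, uncoupling and coenzyme Q genes, 3 (11.5%) were called higher and 4 (15.4%) lower, both near the shares of all genes, among them the outer membrane channel Vdac3 (0.23), the electron transfer flavoprotein subunit Etfb (-0.38) and the carrier Ucp2 (-0.28). The median transcript length was 1380 bases for the assembly factors and 2005 bases for the citric acid cycle genes.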

How the data were processed

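The members and gene lists were chosen with earlier results of these data known. Per the file headers, the columns give a gene's length, effective length, TPM, FPKM and expected count. The deposited expected counts are estimates that need not be whole and are not scaled for depth. The deposited TPM values were scaled by the authors for length and library, and the deposited FPKM values were not used. The submitters' processing notes list, with no role, the builds mm10 and mm8 and the tool Bowtie 0.12.2, and no source used here gives the quantifier, annotation or strand setting. All 55450 identifiers matched GENCODE M21 (GRCm38), the source of symbols and coordinates; promoter sequences are RefSeq's (GRCm38.p6).

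Expected counts were rounded. In R 4.3.3, edgeR 4.0.16 (TMM, filterByExpr, robust quasi-likelihood test, group as the only term, Benjamini-Hochberg, called below 0.05) tested 12891 genes; the biological coefficient of variation common to all genes was 6.74%. CPM uses TMM-scaled library sizes. The steps were tested on simulated counts. Depth limits detection to 3 counts, 0.478 to 0.554 CPM, for counting error only.

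The genes named are all of complex II, all mitochondrially encoded members, Cycs and Cyc1, called members of each other class (at most 4 a direction where over 6 were called), the member with the highest TPM of each class, isoform genes of complexes IV and V, and of each other list the 3 called genes with the smallest p. Genes outside this rule are said to be so, apart from marker genes, Nrf1 and Gabpa.

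Alternatives were DESeq2 1.42.0, RLE scaling, no count filter, 1 CPM in 3 libraries, a replicate block, an effective length offset, a loess length correction (values only), limma 3.58.1 with a trend on log2(TPM + 0.1) or log2(TPM + 1), mitochondrial genes or chromosomes 6, 8 and 11 removed, and each library left out. Alternatives chosen after seeing the data were an offset for length with GC content, and counts summed with genes elsewhere that share at least 5% of a member's 50-base words. Alignments used Biopython 1.88.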

Additional observations from a re-analysis of the deposited data

How the results depend on the processing

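The counts of called nuclear members (54 lower, 3 higher) changed by over 1.5 times with the length and GC offset (17 and 12) and on log2(TPM + 1) and log2(TPM + 0.1) (19 and 5 on both). Leaving out each library gave 43 to 58 lower and 2 to 3 higher. Those fits tested 13151 to 13233 genes and called 1486 to 1787 of them lower and 1118 to 1424 higher. The nuclear median was -0.0248 with the length and GC offset, 0.0034 with the length correction and -0.0966 and -0.0959 on log2(TPM + 0.1) and log2(TPM + 1), scales that put the median of all genes at 0.11 and 0.10. With the same 4 settings in that order, the medians were -0.0406, -0.0023, -0.0992 and -0.0989 for complex I, and 0.0063, 0.0416, 0.164 and 0.163 for complex II, which had 0.0409 under the effective length offset. They were -0.0131, -0.0408, -0.0581 and -0.0578 for complex III, 0.0544, 0.0835, -0.0688 and -0.0688 for complex IV, and -0.0804, -0.0281, -0.128 and -0.128 for complex V. For the mitochondrially encoded members the median was -0.172 in the main fit and -0.092 summed with copies. It was -0.0102 with the length and GC offset and 0.0318 with the length correction. Their count called lower was 3 with no count filter, 0 under the effective length offset, the length and GC offset and both TPM scales, and 0 to 5 with a library left out. Their count called higher was 1 with no count filter and 0 to 1 with a library left out. The cause of these changes was not tested.

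Some named genes turned direction. With the length and GC offset the log2 fold changes were 0.12 for Cox6a1, 0.0271 for Cox6b1, 0.21 for Cox6b2, 0.0035 for Cox7a1, 0.17 for Cox7b, 0.20 for Ndufa4, 0.11 for Ndufa7, 0.0295 for Uqcc2 and 0.0048 for Uqcrb. With the length correction they were 0.0746 for Cox6a1, 0.0511 for Cox6b1, 0.0465 for Cox6c, 0.0069 for Cox7a1, 0.13 for Ndufa7, 0.026 for Uqcc2 and 0.0686 for Uqcrb. On both TPM scales Cox7b and Cyc1 were at 0.18, and with the effective length offset Cyc1 was at 0.0599 and Atp5b at -0.24. Summed with copies, Atp5g2 was at -0.20.

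With the replicate number as a block, 58 nuclear members were called lower and 3 higher, beside 1841 and 1512 of all 12891 genes tested. In that fit 1 mitochondrially encoded member, mt-Co1, was called higher. The libraries share only a number: deviations of same-numbered libraries correlated at 0.018, 0.053 and 0.045, so the numbers were not taken as pairs. Of the 48 nuclear members that DESeq2 called lower, 46 were among the 54.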
